A study of Mus musculus with 2 samples.

Results

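The cells described here are the microglia that stood highest, within each library, in the share of their transcripts taken by 8 homeostatic genes during cuprizone demyelination. The 8 genes were P2ry12, Siglech, Crybb1, Slc2a5, Tmem119, Cx3cr1, Ltc4s and Ecscr, and the top 10% of cells of each library by this share were taken. That gave 213 cells of the medial and 231 of the lateral library, 444 of 4439 in all, and they are called homeostatic-high cells below. They are set against the lower 50% of each library by the same share, called homeostatic-low cells, which were 1065 medial and 1154 lateral cells. The study dissociated 2 regions of the corpus callosum, a myelin-rich tract that joins the hemispheres, and made 1 single-cell RNA-seq library of sorted microglia for the medial and 1 for the lateral region. Both libraries came from C57Bl6 mice whose genotype is labelled CX3CR1 and which had received cuprizone, a copper chelator that kills oligodendrocytes, for 4 weeks. The labels used here do not say which CX3CR1 allele they carried, how old they were, how many were pooled or how the sort was gated. No library of mice without cuprizone was analysed here, so these cells are high relative to other cells of lesioned tissue, and how near they are to microglia of undamaged brain was not tested.

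Homeostatic genes are those that microglia of undamaged brain express strongly and that set them apart from other macrophages, and many encode surface receptors for nucleotides, chemokines and lipids. Their expression depends on TGF-beta signals and on transcription factors such as Sall1 and Mef2c. When microglia meet dying cells or myelin debris they are known to lower these genes and to switch on a disease-associated programme that includes Apoe, Spp1, Lpl, Itgax and Igf1, in part through the lipid receptor Trem2. Subsets of activated microglia also express interferon-response genes or the MHC class II genes used to show antigen to CD4 T cells.

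The values that chose the cells come first, as a description. The 8 genes took a median of 0.415% of UMIs, with a range of 0.356 to 0.914%, in homeostatic-high cells of the medial library, and a median of 0.432%, with a range of 0.365 to 0.814%, in those of the lateral library. In homeostatic-low cells the median was 0.122% medial and 0.128% lateral, and the highest value 0.186% and 0.188%. The distribution had no gap at the limit. In the medial library the last cell inside it stood at 0.356% and the first outside at 0.355%, and in the lateral library at 0.365% and 0.364%. A median of 43 medial and 37 lateral UMIs per homeostatic-high cell came from the 8 genes, against 11 and 11 in homeostatic-low cells. All 8 genes were detected in 63 medial and 66 lateral homeostatic-high cells. Where each cell's UMIs were split at random into equal parts, 49.8% of the cells chosen on 1 part in the medial library and 47.6% in the lateral library were also in the top 10% of the other, and 92.0% and 92.6% were in its upper 50%.

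**Figure D1:**
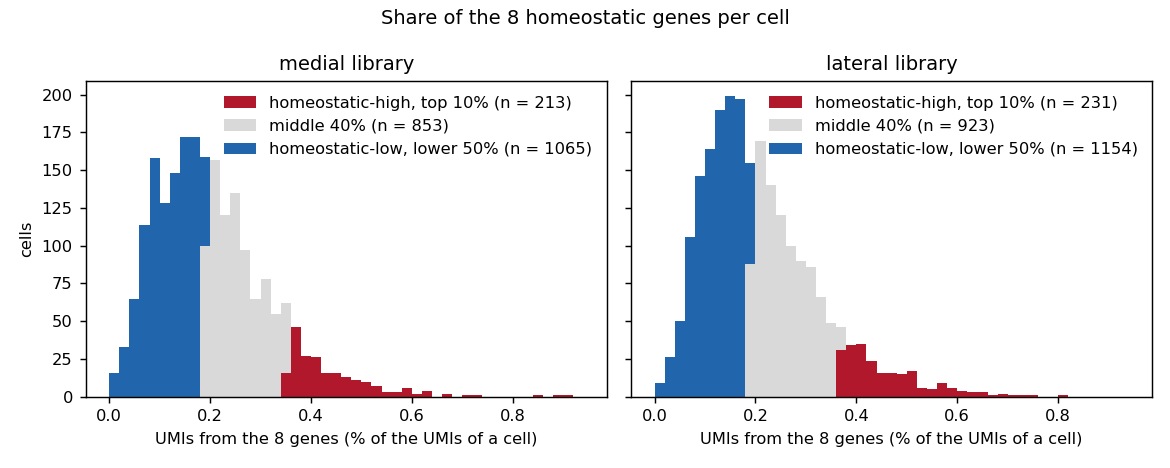
Number of cells (vertical axis) by the percent of a cell's UMIs that came from the 8 homeostatic genes (horizontal axis), medial library left and lateral library right, with colours stacked for homeostatic-high cells (top 10%), the middle 40% and homeostatic-low cells (lower 50%). Both distributions have a long upper tail, and the top 10% begin inside that tail at 0.356% medial and 0.365% lateral.

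The 8 genes did not differ alike. Crybb1, a lens crystallin gene that microglia also express, stood 7.07-fold higher in homeostatic-high cells than in homeostatic-low cells of the medial library and 8.80-fold higher in the lateral library. The fructose transporter gene Slc2a5 was at 103.7 CPM in homeostatic-high cells and 16.1 CPM in homeostatic-low cells of the medial library, and at 139 CPM and 15.4 CPM in the lateral library. The ADP receptor gene P2ry12 was at 1131 CPM in homeostatic-high cells and 207 CPM in homeostatic-low cells of the medial library, and at 1186 CPM and 245 CPM in the lateral library. The fractalkine receptor gene Cx3cr1 differed least, by 1.66-fold medial and 1.68-fold lateral. CPM is the UMI count of a gene summed over a set of cells and scaled to a fixed total of all UMIs of those cells. Since 3' tags were counted, it describes 1 gene across cells and does not rank different genes. These 8 genes are left out of every difference described below.

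Both libraries were of like depth. The kept cells had a median of 10732 UMIs and 2789 genes in the medial and 9694 UMIs and 2643.5 genes in the lateral library. Homeostatic-high cells were shallower, with a median of 9636 medial and 8453 lateral UMIs, against 10372 and 9934.5 in homeostatic-low cells, and their median mitochondrial share was 2.29% and 2.60%, against 2.19% and 2.40%. Of the kept cells, 7 barcodes occurred in both libraries. Of microglial markers that were not part of the choice, Csf1r was at 1302 CPM in homeostatic-high cells and 953 CPM in homeostatic-low cells of the medial library, and at 1250 CPM and 884 CPM in the lateral library. The complement gene C1qa was at 9194 CPM against 8834 CPM medial and 8771 CPM against 8343 CPM lateral. Cd163 and Lyve1 of border macrophages, Chil3 of monocytes, Mog and Mobp of oligodendrocytes and Aqp4 of astrocytes were all at 0 in homeostatic-high cells. They were at 0 in homeostatic-low cells as well, so they do not tell these sets apart. Other markers of the same types were present in homeostatic-high cells and are given below. With 1 library per region, and cells chosen on their own UMIs, no test was possible, and cells are not replicates. A difference is therefore described by its size in each library, with a 95% interval that covers counting error only. A gene is called higher or lower when homeostatic-high cells differed from homeostatic-low cells by at least 1.5-fold the same way in both libraries.

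Homeostatic-high cells were higher in 79 genes, 1.32% of the 5971 compared, and lower in 132, 2.21%. These shares are the background for every count of called genes in a list below. Regardless of size, 2324 of the 5971 genes had a ratio above 1 in both libraries and 1759 a ratio below 1 in both. The median log2 ratio over all genes compared was 0.05 medial and 0.02 lateral. When the cells were chosen on a random part of each cell's UMIs and the values read from the rest, 41 genes were higher and 69 lower, and 31 of 48 higher and 63 of 99 lower genes that could still be compared were called again. The choice and the values then shared no UMI, but both came from the same cells. With each cell thinned to 2400 UMIs and both sets of cells chosen anew on the thinned counts, 19 genes were higher and 37 lower of 2161 compared. Of the genes called before, 12 of 27 higher and 32 of 58 lower ones were called again. Counts per cell at 2400 UMIs given below keep the cells as first chosen.

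**Figure D2:**
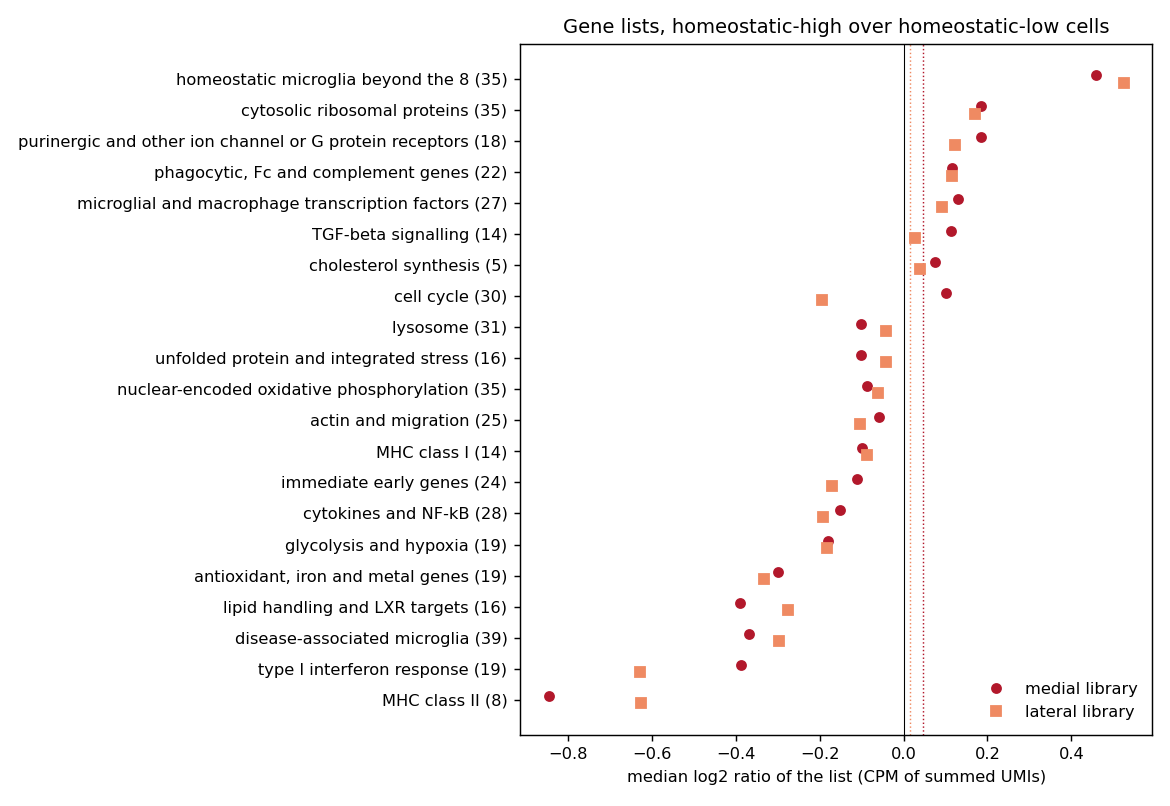
Median log2 ratio of CPM, homeostatic-high cells (top 10%) over homeostatic-low cells (horizontal axis), for 21 gene lists with the number of genes compared in brackets, with circles for the medial and squares for the lateral library. Dotted lines mark the median over all genes compared. The other homeostatic genes lie farthest to the right, at 0.46 and 0.52, and MHC class II genes farthest to the left in the medial library, at -0.85, a midpoint between 4 genes below and 4 above a ratio of 1.

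Other homeostatic genes, beyond the 8 that chose the cells, made up much of what was higher within lists. Of 37 listed genes 35 had enough UMIs to be compared, and of these 14 were higher, 0 lower and 21 neither, and 32 had a ratio above 1 in both libraries. Their median log2 ratio was 0.46 medial and 0.52 lateral. These genes had been picked with earlier results of these data known, and they are known to be expressed with the 8, so their direction is a description of the same cells. Adgrg1, an adhesion G protein-coupled receptor gene at 94974751 to 95014217 on the plus strand of chromosome 8 (GRCm38), was at 74.8 CPM in homeostatic-high cells and 19.7 CPM in homeostatic-low cells of the medial library, a log2 ratio of 1.92 (1.63 to 2.22). In the lateral library it was at 52.4 CPM and 19.0 CPM, 1.47 (1.11 to 1.81). Its level in both sets of homeostatic-high cells lay above that of free RNA, 26.2 CPM medial and 19.2 CPM lateral, which was read from barcodes of at most 100 UMIs.

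The selectin ligand gene Selplg was at 1017 CPM in homeostatic-high cells and 464 CPM in homeostatic-low cells of the medial library, and at 1075 CPM and 468 CPM in the lateral library, log2 ratios of 1.13 and 1.20. P2ry13, which like P2ry12 encodes an ADP receptor, was at 103 CPM against 48.5 CPM medial and 115 CPM against 55.2 CPM lateral. The secreted olfactomedin-like gene Olfml3 had log2 ratios of 0.89 and 0.96, the matricellular gene Sparc 0.73 and 0.83, and the lysophosphatidylserine receptor gene Gpr34 0.78 and 0.71. Sall1, a transcription factor gene of microglial identity, was at 55.1 CPM against 27.1 CPM medial and 51.4 CPM against 28.6 CPM lateral. Also higher were Entpd1, which encodes the ectonucleotidase CD39, the checkpoint receptor gene Vsir, and Cd164, Abi3, Lpcat2 and Slco2b1, with log2 ratios between 0.59 and 1.03.

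Several well-known microglial genes lay below the 1.5-fold limit. Csf1r, the receptor gene on which microglia depend for survival, had log2 ratios of 0.45 (0.39 to 0.51) and 0.50 (0.44 to 0.56). Cystatin C, Cst3, had 0.46 and 0.42 and the Fc receptor-like gene Fcrls 0.31 and 0.21. Tgfbr1, a receptor gene for TGF-beta, had 0.03 and 0.18. Ang and Cd34 had ratios below 1 in both libraries, -0.25 and -0.19 for Ang and -0.12 and -0.18 for Cd34.

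Of the 79 higher genes, 62 were in none of the 21 lists. Among those named by the size of their difference, Cryba4, a second crystallin gene beside Crybb1, was at 68.4 CPM in homeostatic-high cells and 27.7 CPM in homeostatic-low cells of the medial library, and at 81.1 CPM and 28.6 CPM in the lateral library. That was 2.47-fold and 2.84-fold higher. The calpain protease gene Capn3 had log2 ratios of 1.26 (0.95 to 1.56) and 1.24 (0.94 to 1.54), and the cyclooxygenase-1 gene Ptgs1 0.96 and 1.05. Ptgs2, which encodes the inducible cyclooxygenase-2, was lower, at 13.8 CPM against 51.4 CPM medial and 32.7 CPM against 56.6 CPM lateral. Fchsd2 and Bin2, whose products bind membranes, had log2 ratios of 1.09 and 1.13 for Fchsd2 and of 0.84 and 0.82 for Bin2. The Cdc42 exchange factor gene Fgd2 had 1.23 and 0.92, the cytokine gene Il16 1.18 and 1.03, and the Toll-like receptor accessory gene Ly86 0.74 and 0.74. Itgam, which encodes the integrin chain CD11b, was at 441 CPM against 230 CPM medial and 432 CPM against 241 CPM lateral.

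**Figure D3:**
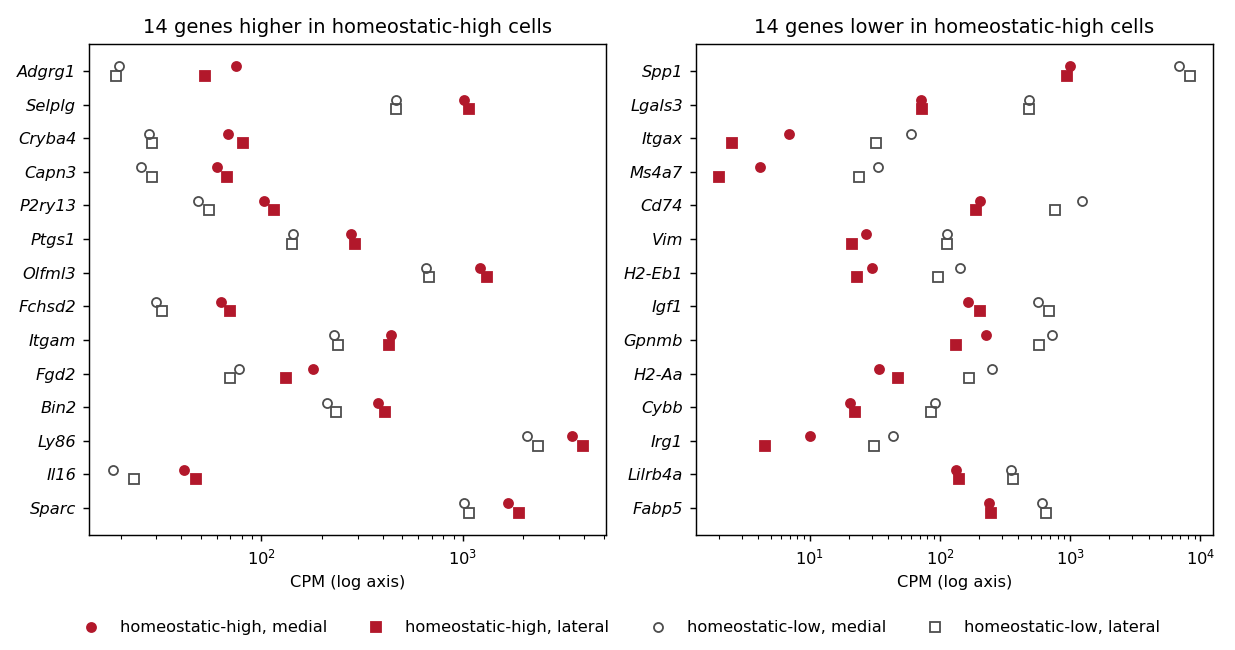
CPM on a log axis for the 14 genes named as higher (left) and the 14 named as lower (right), with filled red symbols for homeostatic-high cells (top 10%), open symbols for homeostatic-low cells, circles for the medial and squares for the lateral library. Filled symbols lie to the right of open ones for every gene on the left, from Adgrg1 to Sparc, and to the left of them for every gene on the right, from Spp1 to Fabp5.

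Disease-associated genes were lower in part. Of 39 compared, 12 were lower, 0 higher and 27 neither, and 29 had a ratio below 1 in both libraries. The median log2 ratio was -0.37 medial and -0.30 lateral, and the list took 12.6% of UMIs in homeostatic-high cells against 16.5% in homeostatic-low cells of the medial library, and 12.7% against 16.0% in the lateral library. Spp1, which encodes the secreted protein osteopontin, had the interval bound farthest from a ratio of 1. It was at 992 CPM in homeostatic-high cells and 6789 CPM in homeostatic-low cells of the medial library, a log2 ratio of -2.78 (-2.84 to -2.71), and at 939 CPM and 8243 CPM in the lateral library, -3.13 (-3.20 to -3.07). The galectin gene Lgals3 was at 71.1 CPM against 482 CPM medial and 72.5 CPM against 484 CPM lateral. For both genes the level in homeostatic-high cells lay below that of free RNA, which was 5042 CPM medial and 6181 CPM lateral for Spp1 and 335 CPM and 350 CPM for Lgals3.

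Itgax, which encodes the integrin chain CD11c, had 15 UMIs in all medial and 5 in all lateral homeostatic-high cells, 6.88 CPM and 2.52 CPM, against 59.5 CPM and 32.0 CPM in homeostatic-low cells. Igf1, a growth factor gene for oligodendrocyte lineage cells, was at 164 CPM against 567 CPM medial and 201 CPM against 685 CPM lateral. The lipoprotein lipase gene Lpl was at 336 CPM against 864 CPM medial and 455 CPM against 1026 CPM lateral. The transmembrane glycoprotein gene Gpnmb had log2 ratios of -1.68 and -2.13, the fatty acid binding protein gene Fabp5 -1.34 and -1.43, and the receptor kinase gene Axl -0.87 and -0.62. The inhibitory receptor gene Lilrb4a had -1.42 and -1.39, but its near-identical neighbour Lilr4b, also lower, can share its reads, so neither value is certain. The annexin gene Anxa5, the capping protein gene Capg and the galectin gene Lgals1 made up the rest of the 12.

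Other genes of the same list were not called. Cst7, a cystatin gene, was at 1176 CPM in homeostatic-high cells and 1070 CPM in homeostatic-low cells of the medial library, and at 1325 CPM and 1272 CPM in the lateral library, log2 ratios of 0.14 (0.07 to 0.20) and 0.06. Trem2 was at 2648 CPM against 2691 CPM medial and 2848 CPM against 2727 CPM lateral, and the log2 ratios of its signalling partner Tyrobp were -0.03 and -0.08. The cathepsin gene Ctsl had 0.28 and 0.24, and the membrane-shaping gene Baiap2l2 0.45 and 0.56. Apoe, an apolipoprotein gene that carries lipid between brain cells, was at 36912 CPM in homeostatic-high cells and 56331 CPM in homeostatic-low cells of the medial library, a log2 ratio of -0.61. In the lateral library it was at 33326 CPM and 46218 CPM, -0.47, short of the 1.5-fold limit there.

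Of 8 MHC class II genes compared, 4 were lower and 0 higher, and the other 4, H2-DMa, H2-DMb1, H2-Oa and H2-Ob, had ratios above 1 in both libraries. The median log2 ratio of -0.85 medial and -0.63 lateral thus lies between 4 genes on each side and describes none of them. Cd74, which encodes the chaperone chain that holds the class II groove, was at 204 CPM in homeostatic-high cells and 1228 CPM in homeostatic-low cells of the medial library, a log2 ratio of -2.59 (-2.73 to -2.45), and at 188 CPM and 768 CPM in the lateral library, -2.03 (-2.19 to -1.88). Under the alternatives tried the medial ratio ran more widely than that interval, from -3.76 without cells holding proliferation transcripts to -1.84 against all other cells. The first of these settings left out 1187 of the 2131 medial cells. H2-Aa, H2-Ab1 and H2-Eb1, whose products form the class II dimers, were lower too, with log2 ratios of -2.88 and -1.81 for H2-Aa, -1.72 and -1.34 for H2-Ab1, and -2.25 and -2.06 for H2-Eb1. These copies of 1 family are alike in sequence, and reads could be split among them. At 2400 UMIs per cell, 79.8% of medial and 79.7% of lateral homeostatic-high cells had no Cd74 UMI, against 62.5% and 72.7% of homeostatic-low cells, and the top decile of cells held 79.8% and 71.1% of the Cd74 UMIs of homeostatic-high cells, against 83.9% and 88.8% of those of homeostatic-low cells. With Cd74 at 571 CPM medial and 541 CPM lateral in free RNA, above its level in homeostatic-high cells, a single UMI in a cell cannot be read as expression. Of 14 MHC class I genes, 0 were called either way, with medians of -0.10 and -0.09, and B2m, the shared light chain, had log2 ratios of -0.10 and -0.07.

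Summed markers of other macrophages moved with these genes. The 7 border macrophage markers summed to 0.193 medial and 0.131 lateral per 10000 UMIs in homeostatic-high cells and to 0.608 and 0.443 in homeostatic-low cells, against 0.488 and 0.362 in free RNA. In homeostatic-high cells 4 of the 7 medial and 5 of the 7 lateral were at 0, and most of the sum was Ms4a7, which was at 4.13 CPM against 33.6 CPM medial and 2.01 CPM against 23.9 CPM lateral, and Pf4, at 14.2 CPM against 26.5 CPM and 11.1 CPM against 19.9 CPM. Mrc1, another defining marker, was at 0.918 CPM, from 2 UMIs, in medial homeostatic-high cells and at 0 in lateral ones. In homeostatic-low cells Mrc1 was at 0.349 CPM medial and 0.343 CPM lateral, and Cd163 and Lyve1 had no UMI. The 6 monocyte markers summed to 0.440 and 0.478 per 10000 UMIs against 1.05 and 1.05, mostly from Fn1. Ccr2 stood at 0.918 CPM, from 2 UMIs, against 1.74 CPM medial and at 0 against 0.343 CPM lateral. The sum of the 6 astrocyte markers ran the other way, at 0.610 and 0.629 per 10000 UMIs against 0.387 and 0.415. It was nearly all Slc1a3, with 130 of 133 UMIs in medial and 120 of 125 in lateral homeostatic-high cells, so it does not describe the class. Slc1a3, a glutamate transporter gene that microglia can also express, was at 59.7 CPM against 38.1 CPM medial and 60.4 CPM against 38.5 CPM lateral, while Gfap was at 0.459 CPM against 0.349 CPM and at 0.504 CPM against 2.40 CPM. The 6 oligodendrocyte markers summed to 0.771 and 0.650 per 10000 UMIs against 0.686 and 0.725, with 0.577 and 0.610 in free RNA, and Mbp was at 12.4 CPM against 12.4 CPM medial and 11.6 CPM against 11.5 CPM lateral. The 6 endothelial markers summed to 0.950 and 0.609 against 1.23 and 1.08, with 1.36 and 1.10 in free RNA. Flt1 was lower, at 20.6 CPM against 44.6 CPM medial and 21.2 CPM against 52.1 CPM lateral. It held 45 of the 207 medial and 42 of the 121 lateral endothelial UMIs of homeostatic-high cells. In homeostatic-low cells it held 512 of 1415 and 607 of 1259, so the sums lean on 1 gene. Fewer cells of another type and less RNA per cell cannot be told apart in summed counts, and the part of these markers in the differences was not tested.

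Of 19 interferon-response genes, 5 were lower and 0 higher, with medians of -0.39 medial and -0.63 lateral. Isg15, an interferon-induced ubiquitin-like modifier, was at 55.5 CPM in homeostatic-high cells and 102 CPM in homeostatic-low cells of the medial library, and at 42.3 CPM and 74.7 CPM in the lateral library. Ifit3 had log2 ratios of -0.73 (-1.32 to -0.19) and -1.76 (-2.69 to -0.96), and the most abundant member, Ifi27l2a, -0.30 and -0.32. Zbp1, Phf11d and Rsad2 were the other lower ones. However, Rsad2, with -1.52 and -1.94, turned to 0.090 lateral when cells were chosen on part of the UMIs. Its medial ratio turned to 0.045 with cells thinned and chosen anew. Of 16 lipid handling genes and LXR targets, 5 were lower and 0 higher, with medians of -0.39 and -0.27. The apolipoprotein genes Apoc4, with log2 ratios of -1.83 and -1.18, and Apoc1, with -0.96 and -0.73, the scavenger receptor gene Msr1, with -1.63 and -1.84, the lipid droplet gene Plin2, with -0.60 and -0.70, and Fabp3 were the 5. Scarb1, a receptor gene for high-density lipoprotein, had 0.65 and 0.58, just short of the limit in the lateral library. Of 28 cytokine and NF-kB genes, 5 were lower, with medians of -0.15 and -0.19. The neutrophil-attracting chemokine gene Cxcl2 was at 491 CPM against 864 CPM medial and 316 CPM against 577 CPM lateral. Cxcl14, Il1rn, Cd14 and Ptgs2 were the others, while the activation marker gene Cd83 had 0.04 and -0.04.

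Immediate early genes, which tissue dissociation is known to induce, seldom passed the limit. Of 24, 1 was lower, Fosb, and 0 higher, with medians of -0.11 medial and -0.17 lateral. Jun had log2 ratios of 0.13 and 0.03, whereas Fos had -0.39 and -0.91 and Egr1 -0.27 and -0.68. Of 30 cell cycle genes, 1 was lower, Ccnb2, with medians of 0.10 medial and -0.19 lateral. The medial median turned to -0.21 when Apoe was left out of the totals and the lateral one to 0.03 when each cell counted alike, so no direction is given for that list. Among the 14 genes named as lower, the intermediate filament gene Vim was at 27.1 CPM against 113 CPM medial and 21.2 CPM against 114 CPM lateral. The NADPH oxidase subunit gene Cybb had log2 ratios of -2.19 and -1.93, and Irg1, which encodes the itaconate-forming enzyme, -2.10 and -2.78.

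Lists of basic cell function, apart from the actin list, held few called genes or none. Of 35 genes of cytosolic ribosomal proteins, 0 were called, but 34 had a ratio above 1 in both libraries, with medians of 0.18 medial and 0.17 lateral. Of 35 nuclear-encoded oxidative phosphorylation genes and 19 genes of glycolysis and hypoxia, 0 were called, with medians of -0.09 and -0.06 for the first list and -0.18 in both libraries for the second. Of 31 genes of the lysosome list, 2 were lower, with medians of -0.10 and -0.04. These were the proton pump subunit gene Atp6v1a and Plin2, the lipid droplet gene already counted among the lipid handling genes. Among 19 antioxidant, iron and metal genes, 1 was lower, the metallothionein gene Mt2, with medians of -0.30 and -0.33. Of 22 phagocytic, Fc receptor and complement genes, Itgam was higher and Msr1 lower, with medians of 0.12 and 0.12, and C1qa had 0.06 and 0.07. Of 18 purinergic and other receptor genes, 1 was higher, the adenosine receptor gene Adora3. Its lateral log2 ratio of 0.86 became -0.072 with cells thinned to 2400 UMIs and chosen anew. In the actin list of 25 genes, Fscn1, which encodes the bundling protein fascin, was higher and Vim, Tmsb10, Anxa2 and Myo5a were lower. The medians of that list were -0.06 and -0.10. Among 27 transcription factor genes, 1 was lower, Bhlhe40, at 18.8 CPM against 58.0 CPM medial and 32.7 CPM against 54.7 CPM lateral. Its relative Bhlhe41 stood at log2 ratios of 0.43 and 0.43, Ikzf1 at 0.57 and 0.48, and Mef2c at 0.36 and 0.24. Of 14 genes of TGF-beta signalling, 1 was lower, Id3, and Tgfb1 had 0.06 and -0.06. The medial log2 ratio of Id3, -0.67, became 0.16 without cells holding proliferation transcripts, a setting that left out 1187 of 2131 medial cells. Of 16 genes of the unfolded protein and integrated stress response and of 5 of cholesterol synthesis, 0 were called.

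Across deciles of each library by the 8-gene share, the genes followed unlike courses. Selplg lay higher in each further decile of the lateral library, from 398 CPM in the lowest decile to 1075 CPM in the highest, and Spp1 lay at 13616 CPM in the lowest and 939 CPM in the highest. In the medial library Spp1 was at 9863 CPM in the lowest decile, 3348 CPM in the fifth and 992 CPM in the highest. Cd74 did not fall evenly. In the medial library it was at 2754 CPM and 2100 CPM in the 2 lowest deciles, at 134 CPM in the eighth and at 204 CPM in the highest. Apoe was at 86011 CPM in the lowest medial decile and between 36912 CPM and 38823 CPM in the 4 highest. Ifit3 had no steady course. It was at 10.0 CPM and 10.4 CPM in the 2 lowest medial deciles, 57.0 CPM in the third and 14.2 CPM in the highest. The interferon-response list had medians, over all cells, of -0.27 and -0.29 in the 2 lowest medial deciles and -0.36 in the highest. In the lateral library these were 0.11, 0.17 and -0.49. Cst3 was high at both ends in the medial library, with 11290 CPM in the lowest, 7832 CPM in the fifth and 12522 CPM in the highest decile, and with 8873 CPM, 8602 CPM and 11541 CPM there in the lateral library. Mki67, a gene of dividing cells, was highest in the seventh decile, at 51.5 CPM medial and 51.8 CPM lateral, at 25.7 CPM in the highest decile of each library and at 7.93 CPM and 12.6 CPM in the lowest. The middle 40% of cells had a median of 11280 medial and 9860 lateral UMIs, against 9636 and 8453 in homeostatic-high cells, and the part of depth in these courses was not tested.

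**Figure D4:**
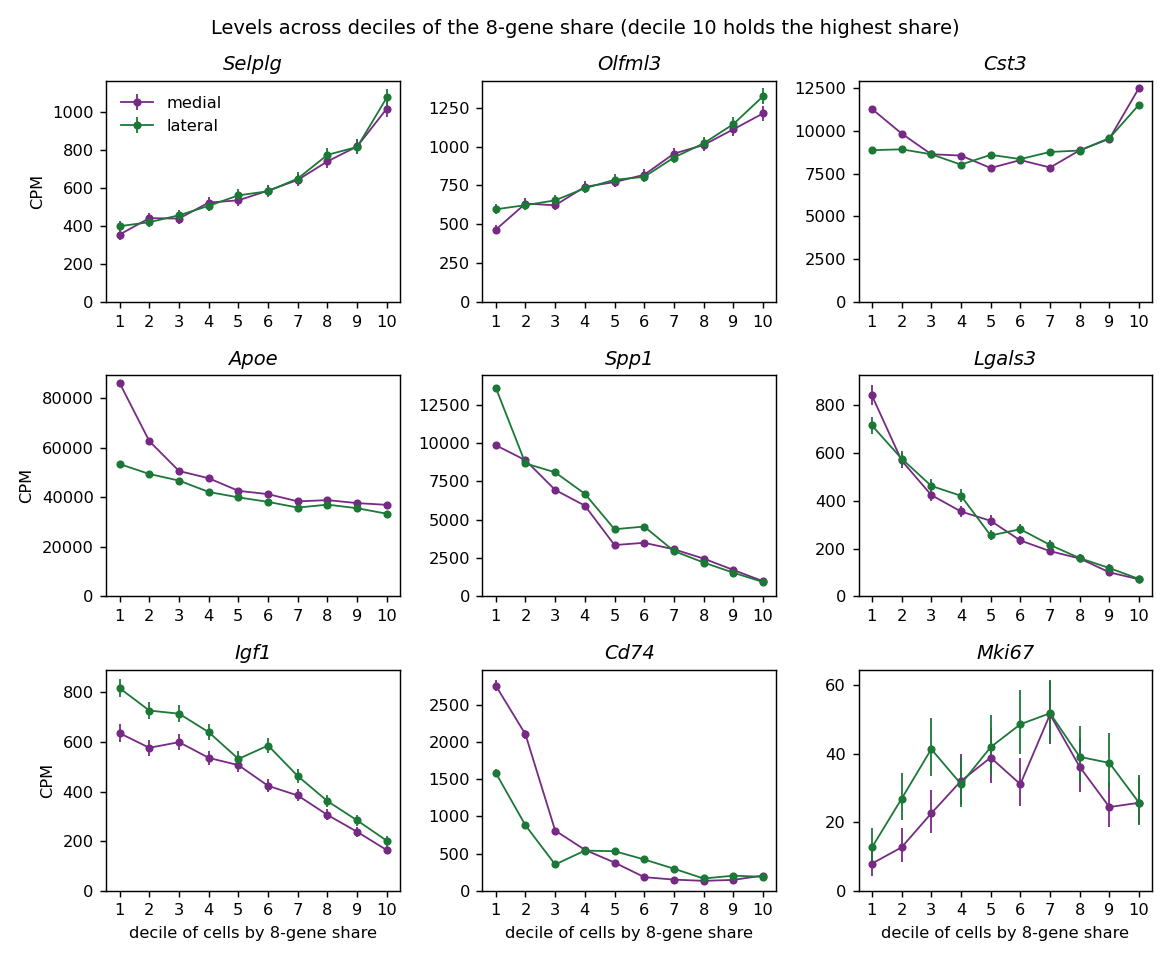
CPM of 9 genes (vertical axes, from 0) in deciles of the cells by the 8-gene share, from 1, the lowest share, to 10, the homeostatic-high cells (horizontal axis), with purple for the medial and green for the lateral library and bars for exact 95% intervals of counting error. Selplg and Olfml3 are highest and Spp1, Lgals3 and Igf1 lowest in decile 10, Cd74 is highest in the lowest deciles, and Mki67 peaks in the seventh.

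Cell by cell, homeostatic-high cells seldom stood among the cells richest in osteopontin. With each cell thinned to 2400 UMIs, 0 of 213 medial homeostatic-high cells were in the top decile of cells by the sum of Spp1, Gpnmb and Lgals3, which allows a share of up to 1.41% by the limit of 3 counts and 1.72% by the exact Clopper-Pearson bound, and 3 of 231 lateral ones were, 1.30% (0.269 to 3.75, exact Clopper-Pearson). Of homeostatic-low cells, 15.9% and 16.3% were, and of the middle 40%, 5.16% and 4.33%. Spp1 itself was still found in most homeostatic-high cells, since 46 of 213 medial and 66 of 231 lateral ones had no Spp1 UMI at that depth, against 80 of 1065 and 99 of 1154 homeostatic-low cells. With Spp1 at 5042 and 6181 CPM in free RNA, a single UMI in a cell cannot be read as expression. By the whole disease-associated list, 4.23% of medial and 3.46% of lateral homeostatic-high cells were in the top decile, against 16.7% and 15.2% of homeostatic-low cells. The middle 40% stood at 3.05% and 5.20%, so a low share was not particular to homeostatic-high cells. By the other homeostatic genes, 28.2% (22.2 to 34.7) and 33.8% (27.7 to 40.3) were, against 7.32% and 5.20%. The share in the top decile by ribosomal protein genes was 23.5% and 15.2%, against 6.48% and 6.76%. By the cell cycle list it was 7.98% and 8.23% of homeostatic-high cells, 13.2% and 12.1% of the middle 40%, and 7.79% and 8.67% of homeostatic-low cells. The homeostatic-high cells are a range cut from a score, not a type, and 6.57% of medial and 3.90% of lateral homeostatic-high cells lay above the median of homeostatic-low cells in the sum of Spp1, Gpnmb and Lgals3.

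The study's own comparison, medial against lateral, could be made within homeostatic-high cells, again with 1 library per region and no test. Past 1.5-fold, 180 of the 5971 genes were higher in medial than in lateral homeostatic-high cells, 3.01%, and 140 were lower, 2.34%. The 2 sums held 2179365 and 1985759 UMIs, so many genes rested on few UMIs, and among genes with at least 1000 UMIs in each library 62 were past that size. The other homeostatic genes were level, with a median log2 ratio, medial over lateral, of -0.01 in homeostatic-high cells and -0.05 in homeostatic-low cells, and 0 of 35 past 1.5-fold. Adgrg1 was at 74.8 CPM in medial and 52.4 CPM in lateral homeostatic-high cells, a log2 ratio of 0.51 (0.15 to 0.88), against 0.05 in homeostatic-low cells.

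Immediate early genes were on the medial side in 23 of 24 cases in homeostatic-high cells, against 2829 of all 5971 genes, and 5 were past 1.5-fold. Their median was 0.38 in homeostatic-high cells and 0.31 in homeostatic-low cells. Fos was at 316 CPM in medial and 192 CPM in lateral homeostatic-high cells, a log2 ratio of 0.72 (0.54 to 0.90), and at 0.20 (0.14 to 0.26) in homeostatic-low cells. Nlrp3, the sensor gene of an inflammasome, was at 251 CPM and 128 CPM, 0.97 (0.76 to 1.19), and at 0.41 in homeostatic-low cells. Interferon-response genes had a median of 0.47 in homeostatic-high cells and 0.06 in homeostatic-low cells, and 8 of 19 were past 1.5-fold on the medial side. Irf7, a transcription factor gene of that response, was at 53.7 CPM and 31.2 CPM, 0.78 (0.33 to 1.25), and at -0.05 in homeostatic-low cells. The serum amyloid gene Saa3 had 52 UMIs in medial and 7 in lateral homeostatic-high cells, 23.9 CPM and 3.53 CPM, so its log2 ratio of 2.76 (1.61 to 4.14) rests on few molecules. The cystine transporter gene Slc7a11 was at 58.7 CPM and 25.7 CPM, the calcineurin regulator gene Rcan1 at 70.2 CPM and 26.2 CPM, and Hivep2 and Sertad1 were also named on the medial side. Bcl2a1c had log2 ratios of 1.60 in homeostatic-high cells and 1.47 in homeostatic-low cells, but it has near-identical copies and is uncertain.

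On the lateral side of homeostatic-high cells stood the TNF family gene Tnfsf9, at 34.0 CPM medial and 70.0 CPM lateral, a log2 ratio of -1.04 (-1.47 to -0.63), against -0.07 (-0.21 to 0.07) in homeostatic-low cells. Ptgs2 was at 13.8 CPM and 32.7 CPM, -1.25 (-1.92 to -0.60), against -0.14 in homeostatic-low cells. Erlin2, Ppil1, Fbxo6, Timm17a, Amdhd2 and the proteasome receptor gene Adrm1 were named there too, with log2 ratios between -1.13 and -0.70. MHC class II genes had a median of 0.12 in homeostatic-high cells and 0.38 in homeostatic-low cells, with 0 past 1.5-fold in homeostatic-high cells. Cd74 had a log2 ratio of 0.12 (-0.08 to 0.32) in homeostatic-high cells and 0.68 (0.64 to 0.71) in homeostatic-low cells, and H2-Aa one of -0.49 (-0.95 to -0.04) and 0.57 (0.49 to 0.65). Whether any regional ratio differs between the 2 sets of cells was not tested.

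**Figure D5:**
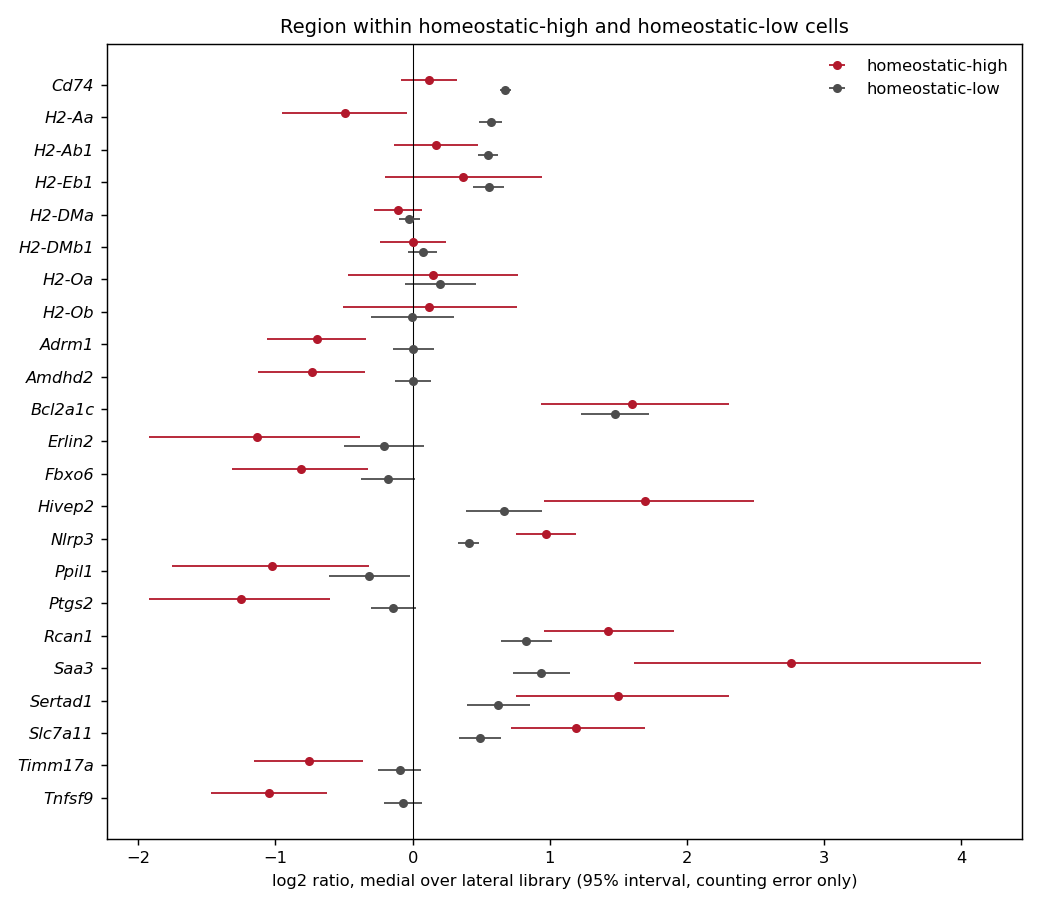
Log2 ratio of CPM, medial over lateral library (horizontal axis), in homeostatic-high cells (top 10%, red) and in homeostatic-low cells (grey), with exact conditional 95% intervals of counting error, for the 8 MHC class II genes and genes named for their regional difference. Cd74 lies at 0.12 in homeostatic-high cells and 0.68 in homeostatic-low cells, while Tnfsf9 lies at -1.04 and -0.07.

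The starts of the genes that moved together were searched for 4 motifs, on both strands, in RefSeq windows of 250 bases before to 50 after the start (build GRCm38.p6, the first window listed for a gene). A window was found for 60 of the 79 higher and 96 of the 132 lower genes. The letters CTANNNNTAG are a loose form of the site of MEF2 factors, since any base may stand at N. The form reads the same on both strands. It occurred in 8 of the 60 windows of higher genes, 13.3%, and in 2 of the 96 of lower genes, 2.08%. Its share was 2.63% in windows of all genes compared and 3.70% in all 27025 genes with a window. The 8 genes were Capn3, Ckb, Eef2k, Gpr146, Hspb3, Naaa, Numb and Slc38a10, and the 2 were Fgf13 and Phf11d. The PU.1 form GAGGAAGT occurred in 8.33% of windows of higher genes, 6.25% of lower genes and 3.63% of all genes compared. The AP-1 form TGANTCA occurred in 10.0%, 11.5% and 4.68%, and the form TCACGTG of the lysosomal MiT/TFE factors in 11.7%, 9.38% and 7.58%. None of the 4 is contained in another. A match is a description of letters, not a bound site, and no enrichment was tested.

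The 250 bases before the start are shown for 5 genes that were chosen after the values were seen, with the matched motif in capitals. Of the 8 genes of the choice, 6 had a window, of which that of Cx3cr1 holds the loose MEF2 form, with a G among its middle bases. Those of P2ry12 and Siglech hold the form TCACGTG. Capn3 and Ckb are higher genes that hold the MEF2 form. Ckb, a creatine kinase gene, was at 539 CPM against 306 CPM medial and 516 CPM against 303 CPM lateral. Spp1 holds the PU.1 form and Itgax the AP-1 form, and both genes were lower. The windows are chr9:120068297-120068546, minus strand, for Cx3cr1, chr2:120463343-120463592, plus strand, for Capn3, chr12:111672339-111672588, minus strand, for Ckb, chr5:104434861-104435110, plus strand, for Spp1 and chr7:128129300-128129549, plus strand, for Itgax.
Cx3cr1: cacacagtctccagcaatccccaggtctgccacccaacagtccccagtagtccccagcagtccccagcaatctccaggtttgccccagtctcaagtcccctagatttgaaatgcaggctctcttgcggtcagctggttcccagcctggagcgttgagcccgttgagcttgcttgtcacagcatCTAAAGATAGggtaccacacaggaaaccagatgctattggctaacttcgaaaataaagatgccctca
Capn3: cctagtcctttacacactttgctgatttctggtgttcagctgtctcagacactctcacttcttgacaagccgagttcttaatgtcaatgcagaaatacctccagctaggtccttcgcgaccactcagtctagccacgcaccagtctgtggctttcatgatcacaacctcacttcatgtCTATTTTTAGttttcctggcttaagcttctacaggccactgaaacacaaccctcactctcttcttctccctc
Ckb: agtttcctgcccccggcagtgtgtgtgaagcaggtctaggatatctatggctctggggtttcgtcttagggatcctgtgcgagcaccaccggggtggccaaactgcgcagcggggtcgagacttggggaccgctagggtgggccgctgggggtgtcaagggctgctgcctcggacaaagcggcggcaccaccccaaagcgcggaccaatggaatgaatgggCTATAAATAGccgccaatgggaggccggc
Spp1: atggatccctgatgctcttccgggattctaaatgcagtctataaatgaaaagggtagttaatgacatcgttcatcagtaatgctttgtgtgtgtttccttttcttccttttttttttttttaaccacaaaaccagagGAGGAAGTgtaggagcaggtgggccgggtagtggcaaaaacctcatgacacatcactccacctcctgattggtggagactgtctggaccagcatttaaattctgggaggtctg
Itgax: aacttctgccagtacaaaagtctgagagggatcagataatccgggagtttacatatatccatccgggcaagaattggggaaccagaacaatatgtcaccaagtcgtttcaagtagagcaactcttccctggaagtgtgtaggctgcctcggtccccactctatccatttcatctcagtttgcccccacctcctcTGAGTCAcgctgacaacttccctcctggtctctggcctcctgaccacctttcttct
The match begins 67 bases before the start of Cx3cr1, 72 before that of Capn3, 29 before that of Ckb, 113 before that of Spp1 and 56 before that of Itgax. The Capn3 window lies inside the span of that gene, 120456019 to 120504913 on the plus strand. The start used for Capn3 is thus an internal one, not the first base of the gene.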

How the data were processed

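Single-cell RNA-seq was measured in 2 libraries of flow-sorted, uncultured microglia, 1 per region, made with 10x 3' chemistry per the labels. The authors deposited raw UMI counts, where a UMI tags 1 captured molecule, for 27998 genes and 737280 barcodes in each library, without normalisation. The submitters' processing notes name Cell Ranger 2.0.1, STAR and mm10, and the gene annotation is not stated there. UMI totals were 28660496 medial and 27955414 lateral.

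A barcode was kept as a cell when it held 2400 UMIs or more and 300 genes or more, and when mitochondrial UMIs were no more than 10%, which left 2131 medial and 2308 lateral cells. The limit on mitochondrial UMIs took out 3 barcodes per library. Counts of the 56 symbols with more than 1 gene ID were summed. UMIs were summed over cells and scaled to CPM, and genes with 300 UMIs or more over the kept cells of each library were compared. Ratios have exact conditional binomial, levels exact Poisson and shares exact Clopper-Pearson 95% intervals, all for counting error only. UMIs of 1 cell are not independent of each other, so true errors are larger. Python 3.11.15, numpy 2.4.6, scipy 1.17.1, pandas 2.3.3 and scanpy 1.11.5 were used, and the steps were tested on simulated data. Scrublet in scanpy marked 5 medial and 5 lateral barcodes, 0.235% and 0.217%, which is too few to have worked as a doublet filter, and they were kept. None of them was homeostatic-high.

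Named genes were the 14 higher and 14 lower genes whose 95% bound lay farthest from a ratio of 1, the 8 on each side by region, up to 2 per direction and the most abundant of each of the 21 lists, and a fixed set of known genes. Sex-linked, mitochondrial and ribosomal protein genes and unnamed models were kept out of these ranks. A few genes that the rule names are not reported here. The cells, the 8 genes and the lists were chosen with earlier results of these data known. Genes called outside the ranks are named after their values were seen. Gene positions are of GRCm38 (mm10). Effects of the 14 alternatives are given at the end.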

Additional observations from a re-analysis of the deposited data

Results flagged for a closer look

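Slc39a6, a zinc transporter gene, was the only one of the 5971 genes compared that was past 1.5-fold in opposite directions in the libraries, which is why it is set apart. Its log2 ratio, homeostatic-high over homeostatic-low cells, was 0.69 (0.17 to 1.18) in the medial library, at 20.6 CPM and 12.8 CPM with 45 UMIs in the homeostatic-high cells, and -0.61 (-1.35 to 0.06) in the lateral library, at 10.1 CPM and 15.4 CPM with 20 UMIs. The difference between the libraries was not tested, and the lateral interval includes a ratio of 1.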

How the results depend on the processing

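The main counts were 79 genes higher, 132 lower and 320 past 1.5-fold between regions. With cells chosen on a random part of the UMIs and values from the rest, 41 genes were higher and 69 lower. With cells thinned to 2400 UMIs and chosen anew on the thinned counts, 19 were higher, 37 lower and 149 regional. Against all other cells instead of homeostatic-low cells, 30 were higher. Without a filter on low counts, 444 were higher, 409 lower and 2620 regional, and with at least 1000 UMIs in each library 33, 69 and 62; by construction these settings change how many genes are compared. Regional counts were 780 for the top 5%, 130 for the top 20% and 1020 without cells holding proliferation transcripts, where fewer or more cells were summed. Higher calls made up 37.4% of the higher and lower calls, 24.2% against all other cells and 52.1% without the filter. Of the ratios of called genes, each library counted apart and with no UMI minimum, 16 had the opposite sign with cells thinned, 6 with the split UMIs, 2 without cells holding proliferation transcripts, 1 for the top 20% and 1 with each cell counted alike. Among named genes the log2 ratio changed sign for Rsad2 (lateral 0.090 with the split UMIs, medial 0.045 thinned), Adora3 (lateral -0.072 thinned), Saa3 (medial 0.58 thinned, 0.097 with each cell counted alike), Hivep2 (lateral 0.045 for the top 20%) and Id3 (medial 0.16 without proliferation transcripts); the cause was not tested. All other alternatives kept these counts within 1.5-fold. Over 13 settings including the main one, Spp1 ran from -3.15 to -2.09 medial and from -3.46 to -2.48 lateral, Selplg from 0.84 to 1.33 and from 0.91 to 1.31, and Cd74 from -3.76 to -1.84 and from -2.34 to -1.54. No paired analysis was possible because each region has 1 library, so the regions share fewer than 2 replicate numbers. With 1 library per region, animal, dissection and library cannot be told apart from region, and genes under the UMI minimum were not compared.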
